A study of Homo sapiens with 9 samples.

Results

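RNA sequencing of human chondrocytes of the immortalised line C28/I2 was compared between 3 libraries of the CA2 shRNA group and 3 libraries of the Control group. These 6 of the 9 libraries in the series were chosen by their titles and their treatment label, and every gene that passed a count filter was tested. The CA2 shRNA cells carry a short hairpin RNA against carbonic anhydrase 2 (CA2), delivered by transduction. The labels name neither the hairpin's sequence nor its vector, do not say whether Control cells were transduced, and do not describe the construct of the Scrambled group, which makes up the other 3 libraries. In the comparison with Control the hairpin against CA2 and transduction itself therefore cannot be told apart, and the Scrambled minus Control difference is printed beside the leading genes. Every group was the same cell line with no other treatment in the labels, and RNA was total RNA from RNeasy Mini columns with QIAGEN FastSelect, which depletes ribosomal RNA. Whether the replicates are separate cultures is not stated, and the p-values therefore measure a spread between libraries that may be technical.

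CA2 is a cytosolic enzyme that converts carbon dioxide and water to bicarbonate and a proton, and so links respiration and glycolysis to the acid-base balance of a cell. Chondrocytes, the cells of cartilage, live in a tissue without blood vessels, draw much of their energy from glycolysis and export lactate with protons. A short hairpin RNA is cut into a small RNA that guides the silencing machinery to a matching transcript. The bases at the start of such a guide, its seed, can also pair with the 3' untranslated region (3' UTR) of other transcripts, as microRNAs do.

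The 6 libraries held 16994368 to 34261244 counts, and 19812 of 60671 genes passed the filter. Control 3 stood apart: it held 4.06% mitochondrial counts against 5.55% to 6.62% in the other 5 libraries, and its counts were closer to those of Scrambled 2 (chi-square per gene 3.70) than to those of Control 1 (14.4) or Control 2 (8.21). The nuclear RNA NEAT1, picked after its values were seen, had 680.0, 312 and 159 CPM in Control and 527, 266 and 367 CPM in CA2 shRNA, and the groups overlapped (log2 change 0.01, adjusted p = 0.994). The first principal component, with 28.98% of the variance, placed the CA2 shRNA libraries at 22.01 to 39.4 and all 6 others between -20.6 and -5.64. Of 11 chondrocyte markers 5 reached 1 CPM (counts scaled to the library total) in some of the 6 compared libraries: SOX9 at 81.7 to 105 CPM and MATN3, and, at the low level of 0.402 to 2.77 CPM in these 6 libraries, COL2A1, COMP and ACAN. COL9A1 had no count in any library, so the defining cartilage collagens were low or absent in these cells. The summed chondrocyte markers were 100.8 to 116 CPM in Control and 120.0 to 122 CPM in CA2 shRNA, and most of each sum was SOX9.

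The targeted gene, CA2 (ENSG00000104267, chr8:85463968-85481493, plus strand, GRCh38), had 55, 41 and 66 counts in Control and 28, 15 and 30 in CA2 shRNA, which are 2.31, 2.00 and 1.94 CPM in Control and 1.397, 0.905 and 1.10 CPM in CA2 shRNA. Each CA2 shRNA library lay below each Control library. The mean level was 54.4% of Control, a change of -0.86 on the log2 scale (SE 0.230, adjusted p = 0.0159), and the Scrambled minus Control difference was -0.09. The call was lost without Control 1 (adjusted p = 0.0531), without CA2 shRNA 2 (0.0665) and without CA2 shRNA 3 (0.0759). In bulk RNA, fewer cells with the transcript and less of it per cell cannot be told apart. The other 7 carbonic anhydrase genes tested did not pass, while 1 rose without Scrambled 2 and 2 rose without CA2 shRNA 3. Among them CA9, the hypoxia-induced enzyme of the cell surface, ranged from 0.732 to 1.01 CPM in Control and from 1.13 to 13.6 CPM in CA2 shRNA, where a single library held the top of the range (log2 change 2.63, SE 0.992, adjusted p = 0.150). CA12, another cell surface form, averaged 2.98 CPM in Control and 4.26 CPM in CA2 shRNA (log2 change 0.53, adjusted p = 0.0807).

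Across all tested genes, 2906 passed an adjusted p of 0.05, which is 14.7% (edgeR's quasi-likelihood test with Benjamini-Hochberg adjustment), and 5237 had an unadjusted p under 0.05. Rises numbered 1269 (6.41%) and falls 1637 (8.26%). The falls were the larger changes: 156 genes fell and 31 rose by at least 2-fold, and 551 fell and 163 rose by at least 1.5-fold. The median absolute log2 change of the called genes was 0.38, while the median of all tested genes was -0.0048. The 3 libraries of 1 group lay wholly above those of the other in 2891 of the called genes, and in 33.0% of all tested genes. Protein-coding genes made up 2719 of the called genes. The plot of log2 change against level shows the called genes, with the falls reaching further from 0 at high levels. Without Control 3 the counts were 935 rises and 1265 falls. Which direction was more frequent turned on single libraries, since rises outnumbered falls without Scrambled 2 (2030 and 1632), without CA2 shRNA 1 (1265 and 1063), without CA2 shRNA 3 (1272 and 1108) and without both Control 3 and Scrambled 2 (1752 and 1461). Rises numbered 686 without Control 2 and 663 without CA2 shRNA 2.

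**Figure D1:**
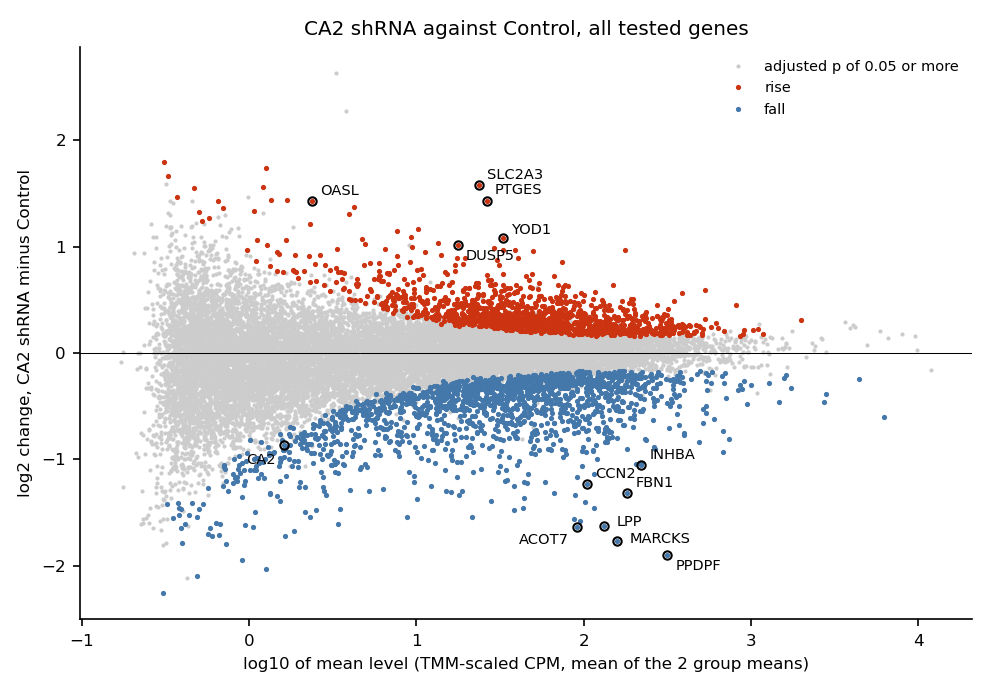
Each point is 1 of 19812 tested genes; the x axis is the log10 of the mean TMM-scaled CPM over the Control and CA2 shRNA group means and the y axis is the log2 change, CA2 shRNA minus Control. Genes with an adjusted p under 0.05 are red (1269 rises) or blue (1637 falls), and the circled genes named in the text include PPDPF at -1.90 and SLC2A3 at 1.58.

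The 15 leading rises had varied roles. Leading rises and falls were taken only from called protein-coding genes with a mean of at least 2 CPM and no overlap between groups. Lack of overlap in them is therefore part of the choice. A number in parentheses after levels is the fitted log2 change, CA2 shRNA minus Control. SLC2A3 (ENSG00000059804, chr12:7919230-7936187, minus strand), the high-affinity glucose transporter GLUT3, had 10.2, 13.0 and 12.4 CPM in Control and 40.2, 32.9 and 33.2 CPM in CA2 shRNA. No library of one group reached the range of the other, and the change was 1.58 on the log2 scale (SE 0.104, adjusted p = 8.96e-09). Its reads are uncertain because the paralog SLC2A14 is nearly identical. PTGES (ENSG00000148344, chr9:129738331-129753042, minus strand), the inducible enzyme that makes prostaglandin E2, had 12.5, 14.5 and 15.6 CPM in Control and 34.2, 41.9 and 39.5 CPM in CA2 shRNA, again without overlap, a change of 1.43 on the log2 scale (SE 0.0946, adjusted p = 9.61e-09). GPAT3, which starts glycerolipid synthesis by acylating glycerol phosphate, rose from 4.84 ± 0.851 to 10.6 ± 0.471 CPM (SD, n = 3 each), or 1.14 on the log2 scale. The ER calcium channel gene ITPR1 had 6.18, 6.63 and 5.19 CPM in Control and 12.6, 13.0 and 12.6 CPM in CA2 shRNA, without overlap (1.09).

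Several leading rises encode secreted or cell surface proteins. FRZB, a secreted Wnt antagonist first known from cartilage, had 2.60, 4.05 and 3.14 CPM in Control and 6.49, 7.36 and 6.11 CPM in CA2 shRNA, all 3 CA2 shRNA values being above the Control values (1.03, adjusted p = 5.14e-04), with a Scrambled minus Control difference of -0.30. SLPI, a secreted inhibitor of elastase, rose from 6.34 to 14.2 CPM (1.17), the secreted guidance factor SEMA3A from 6.32 to 12.5 CPM (0.998), and C1QTNF2, of the C1q and TNF related family, from 2.28 to 5.68 CPM (1.31). The receptor tyrosine kinase MST1R had 2.56, 2.24 and 2.32 CPM in Control and 7.49, 4.46 and 6.43 CPM in CA2 shRNA, with CA2 shRNA 1 to 3 all above Control (1.38, adjusted p = 4.51e-05). The membrane proteins MPZL3 and PLSCR4 rose by 1.03 and 1.21. PLSCR4 also had the largest Scrambled minus Control difference of the 15 leading rises, 0.43.

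The remaining leading rises act inside the cell. DUSP5, the nuclear phosphatase that switches off ERK, had 11.3, 11.2 and 12.5 CPM in Control and 22.1, 25.3 and 23.7 CPM in CA2 shRNA, a change of 1.01 on the log2 scale (SE 0.0904, adjusted p = 3.63e-07). YOD1, a deubiquitinase, rose from 21.1 ± 0.828 to 44.7 ± 2.64 CPM (SD, n = 3 each; 1.08), and PRDM8, a zinc finger regulator of transcription, from 3.03 to 6.47 CPM (1.07). The interferon-induced gene OASL had 0.840, 1.76 and 1.29 CPM in Control and 3.64, 3.20 and 3.51 CPM in CA2 shRNA, low in both groups (1.43, adjusted p = 5.52e-04). All 15 leading rises passed the threshold in each of the 20 alternatives, Control 3 left out included, and their Scrambled minus Control differences lay between -0.30 and 0.43.

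**Figure D2:**
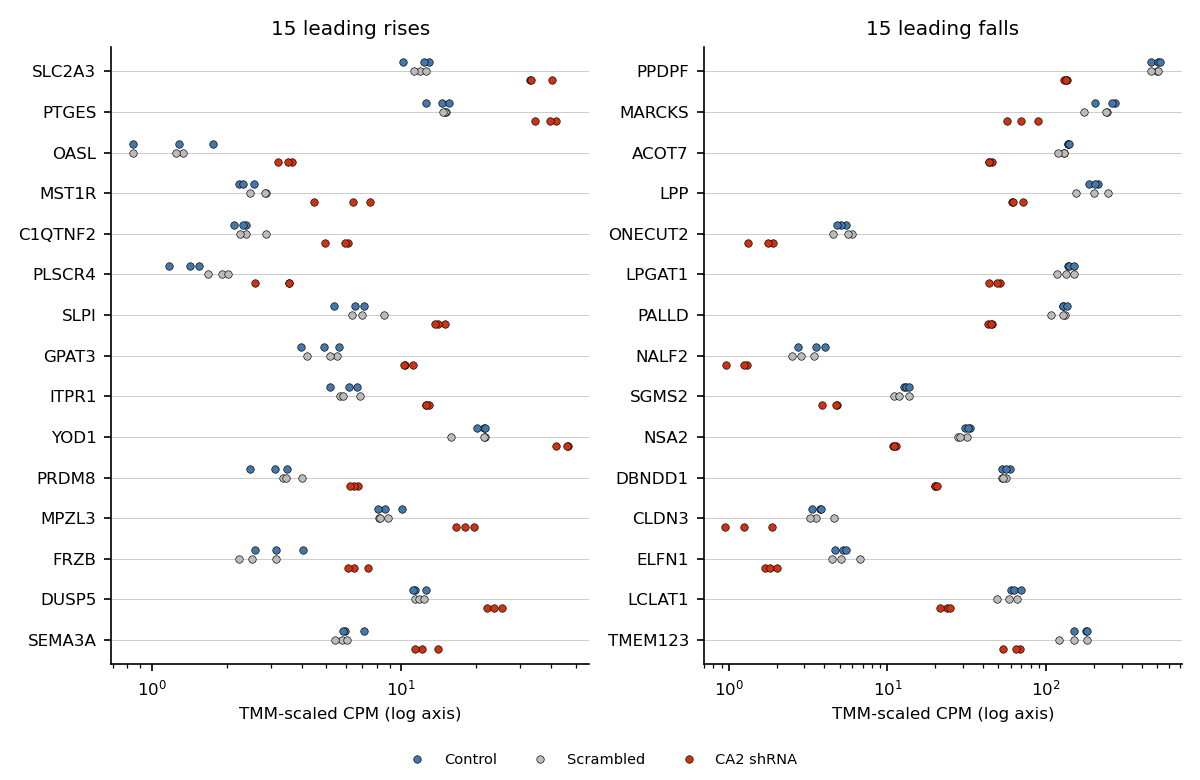
Levels of the 15 leading rises (left) and 15 leading falls (right) by library, in TMM-scaled CPM on a log axis; each point is 1 library, with Control in blue, Scrambled in grey and CA2 shRNA in red. Only genes whose red points lie apart from all 3 blue ones were eligible, and the largest changes are SLC2A3 (1.58) and PPDPF (-1.90) on the log2 scale.

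The leading falls included regulators of the cytoskeleton, lipid enzymes and genes with known roles in other processes. PPDPF (ENSG00000125534, chr20:63520765-63522206, plus strand), named for a role in pancreatic progenitor cells, had 462, 510.4 and 525 CPM in Control and 136, 131 and 135 CPM in CA2 shRNA. Values of all 3 CA2 shRNA libraries were tightly grouped and far below Control, at 26.8% of its mean, a change of -1.90 on the log2 scale (SE 0.0613, adjusted p = 1.94e-12), and the Scrambled minus Control difference was -0.03. MARCKS, a substrate of protein kinase C that binds actin and the membrane, had 205, 272 and 259 CPM in Control and 89.3, 57.0 and 69.4 CPM in CA2 shRNA; the groups did not overlap but varied more (-1.77, SE 0.216, adjusted p = 0.00176). LPP, a protein of focal adhesions, fell from 201 ± 12.9 to 64.9 ± 5.57 CPM (-1.62) and PALLD, which bundles actin, from 131 ± 4.54 to 44.3 ± 1.41 CPM (-1.56; SD, n = 3 each).

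Of the lipid enzymes, ACOT7 (ENSG00000097021, chr1:6264269-6394391, minus strand), which hydrolyses acyl-CoA, had 138, 137 and 139 CPM in Control and 45.8, 43.7 and 43.6 CPM in CA2 shRNA, far apart and with little spread within a group, a change of -1.64 on the log2 scale (SE 0.0575, adjusted p = 4.28e-12). LPGAT1 and LCLAT1, which acylate lysophospholipids, fell from 143 to 47.9 CPM (-1.58) and from 64.1 to 23.3 CPM (-1.46), and SGMS2, a sphingomyelin synthase, from 13.1 to 4.49 CPM (-1.54). The ribosome assembly factor NSA2 fell by 1.54 on the log2 scale, DBNDD1 by 1.48, the tight junction gene CLDN3 by 1.48, ELFN1 by 1.47, TMEM123 by 1.46 and NALF2, an auxiliary gene of a sodium leak channel, by 1.54. The transcription factor ONECUT2 changed by -1.602. All 15 passed in each of the 20 alternatives, with Scrambled minus Control differences between -0.24 and 0.08. The 10 smallest p-values all belonged to falls: PPDPF, ACOT7, PALLD, DBNDD1 and NSA2 above, the ubiquitin ligase gene RNF10 (-1.33), the matricellular gene CCN2 (-1.23), GNPDA1 of amino sugar breakdown (-1.36), the mitochondrial kinase gene NME4 (-1.04) and INHBA, a subunit of activin A (-1.05).

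Most of these falls share a short sequence in the 3' UTR. The 7-base strings ACACCAA and CACCAAA, which overlap in the 8 bases ACACCAAA, were searched on the sense strand of the longest annotated 3' UTR of each gene (GENCODE 29, GRCh38). The strings were taken from an earlier look at these data, so their tie to the falls is a description and carries no test, and a match is not evidence of a binding site. One site is shown for 8 falls with small p or large change and for the 2 leading rises that held a match. Each is printed as sense-strand DNA, 5' to 3', the match in capitals with up to 10 bases on each side.
PPDPF, chr20:63522035-63522062, plus strand: aacacagcagACACCAAAaaccagtgag
ACOT7, chr1:6264412-6264439, minus strand: gcaaacctacACACCAAAgctttattta
LPP, chr3:188876024-188876051, plus strand: ccagtttaagACACCAAAtataacaagt
PALLD, chr4:168926495-168926522, plus strand: taaaaaaaaaACACCAAAataatatttt
RNF10, chr12:120576850-120576877, plus strand: tcctgtctttACACCAAAataaagtatt
INHBA, chr7:41688489-41688516, minus strand: atagacacatACACCAAAgacatttgtg
MARCKS, chr6:113860714-113860740, plus strand: tttttttaagCACCAAAttttgttgtt
NSA2, chr5:74776694-74776720, plus strand: tgaggactacACACCAAttgaagaaac
MST1R, chr3:49887040-49887066, minus strand: agcagtgaccACACCAAcactgaccct
SEMA3A, chr7:83957810-83957836, minus strand: aactggtctaACACCAAggacatctat
The flanks differ between these genes, and the capitals recur because they are the strings searched for. The first 6 hold the 8-base match, and MARCKS, NSA2 and both rises hold a 7-base match at the site shown. Of the 15 leading falls 13 held a 7-base match and 10 the 8-base match, against 2 and 0 of the 15 leading rises, and of the 10 genes with the smallest p 9 held a 7-base match.

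Over all 13962 tested genes with a 3' UTR to search, 18.5% held at least 1 of the 7-base strings. The share was 49.0% of the 1462 called falls searched, 9.78% of the 1248 called rises and 67.6% of the 111 falls of at least 2-fold, of which 38.7% held the 8-base match. The median log2 change was -0.28 for 583 genes with the 8-base match, -0.11 for 1999 with a 7-base match only and 0.04 for 11380 with neither. The matching Scrambled minus Control medians were -0.02, -0.02 and -0.01. Falls made up 42.5%, 23.4% and 6.56% of these 3 sets, and rises 3.09%, 5.2% and 9.89%. Genes with a match have longer 3' UTRs, with a median of 2972 bases against 1068. Within each of 4 bins of UTR length the median was lower with a match than without, from -0.30 against 0.03 in the shortest bin to -0.11 against 0.02 in the longest. As the strings came from these data, these medians are a description too, and the part of UTR length was not tested. CA2 itself holds neither string in its 704-base 3' UTR. Among genes with neither string 1126 rose and 746 fell. The strings were chosen from these data for their tie to falls, so leaving out their holders takes out falls by that choice. These 2 counts are therefore a description and carry no test. Whether the hairpin's seed matches these strings was not tested, because the hairpin's sequence was not used here.

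**Figure D3:**
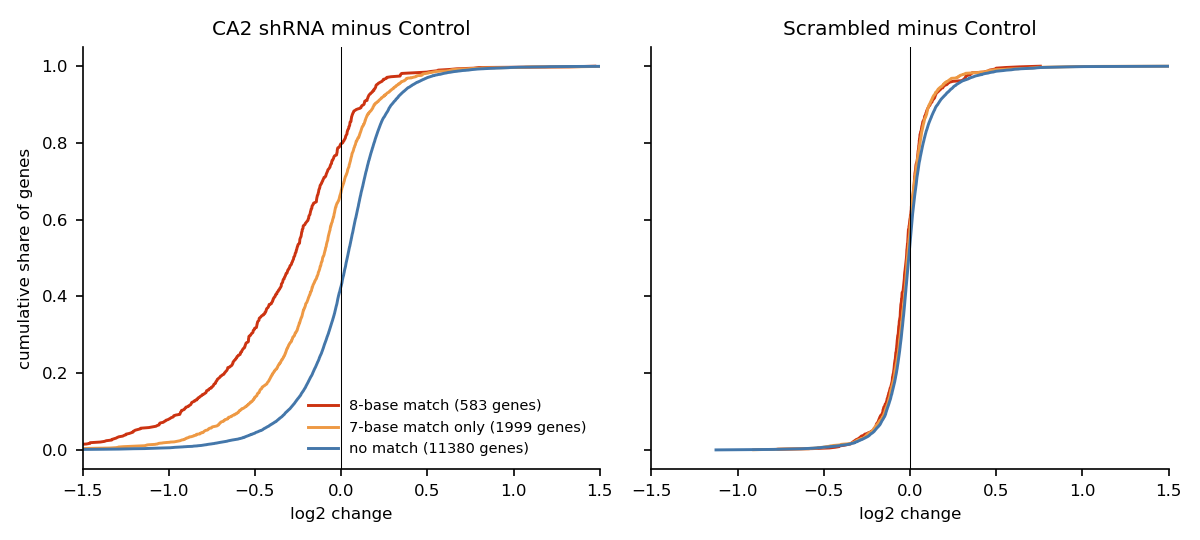
Cumulative share of genes (y axis) against log2 change (x axis) for CA2 shRNA minus Control (left) and Scrambled minus Control (right), with genes split by the longest match in their 3' UTR: 583 with 8 bases, 1999 with 7 bases only and 11380 with none. On the left the curves separate, with medians of -0.28, -0.11 and 0.04, and on the right they lie on each other near 0.

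Some strong falls held neither string. The 10 largest among protein-coding genes with a mean of at least 2 CPM over the 6 libraries and no overlap between groups, a group chosen after values were seen, were NALF2, CLDN3, MSC, FBN1, SHD, CCN2, ATP13A2, JARID2, ZNF853 and PSMG2. FBN1 (ENSG00000166147, chr15:48408313-48645721, minus strand), which encodes the microfibril protein fibrillin 1, had 276, 238 and 263 CPM in Control and 99.2, 101 and 112 CPM in CA2 shRNA. All 3 CA2 shRNA libraries were under the lowest Control library by a wide margin, a change of -1.31 on the log2 scale (SE 0.0701, adjusted p = 1.13e-09). CCN2 (ENSG00000118523, chr6:131948176-131951372, minus strand), a matricellular protein induced by TGF-beta and by YAP, had 143, 143 and 151 CPM in Control and 62.1, 61.2 and 63.5 CPM in CA2 shRNA, with little spread in either group, a change of -1.23 on the log2 scale (SE 0.0561, adjusted p = 1.82e-10). JARID2, a partner of the Polycomb complex PRC2, fell from 63.8 ± 0.716 to 28.97 ± 1.19 CPM (-1.14), the lysosomal transporter gene ATP13A2 from 81.9 ± 3.42 to 35.2 ± 2.38 CPM (-1.22), and the transcription factor MSC from 40.2 ± 6.30 to 15.3 ± 2.15 CPM (-1.39; SD, n = 3 each).

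Some fibrillar matrix genes fell, as did many genes that respond to TGF-beta (transforming growth factor beta). TGF-beta acts through SMAD proteins to raise matrix, contractile and feedback genes. Of 26 tested TGF-beta and SMAD targets 13 fell, 2 rose and 11 did not pass, with a median of -0.28 against 8.26% falls and a median of -0.0048 among all genes. Except for the mitochondrially encoded proteins, all tested list members had a 3' UTR to search. Among all 13962 such genes 8.94% rose and 10.5% fell, together more than the 14.7% called among all tested genes. Lists with a share near 14.7% were therefore called less often than such genes. Besides CCN2, the actin-binding gene TAGLN had 11.01, 8.88 and 9.48 CPM in Control and 5.34, 5.67 and 4.68 CPM in CA2 shRNA, without overlap (-0.91, adjusted p = 5.99e-05). The receptor gene TGFBR2 fell from 135 ± 9.29 to 77.3 ± 2.497 CPM (SD, n = 3 each; -0.80) and the calponin gene CNN1 from 7.07 to 4.37 CPM (-0.70, Scrambled minus Control -0.24). Of the 13 falling targets 5, TGFBR2 among them, held a 7-base string, and among the 20 members with neither string 8 fell and 2 rose (median -0.14). Falls numbered 12 without Control 3, while the 2 rises became 0 without Control 1 or Control 2 and 1 without Control 3 or CA2 shRNA 2.

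Of 26 fibrillar matrix and microfibril genes 8 fell, 1 rose and 17 did not pass (median -0.13), or 34.6% called against 14.7% of all genes. Without Control 3, 8 also fell, and 2 rose without Scrambled 2 or CA2 shRNA 1. The largest fall of the list was that of FBN1. COL5A1, a collagen that nucleates fibrils, had 823, 896 and 846 CPM in Control and 537, 490.0 and 519 CPM in CA2 shRNA, all CA2 shRNA values being lower (-0.73, adjusted p = 1.14e-07). COL12A1, a fibril-associated collagen, fell from 60.9 ± 6.84 to 34.3 ± 0.899 CPM (-0.83) and COL3A1 from 3.97 to 2.18 CPM (-0.85). These 3 collagens held a 7-base string, and 5 of the 18 members with neither string fell. Of 16 cartilage matrix genes and chondrocyte regulators 1 rose, 1 fell and 14 did not pass (median -0.18), or 12.5% called, near the 14.7% of all genes. Both calls were fragile, and 2 fell without Scrambled 1. COMP, a cartilage matrix protein, had 2.77, 1.95 and 2.52 CPM in Control and 1.55, 1.03 and 1.46 CPM in CA2 shRNA, a call lost without Control 1, Control 3, CA2 shRNA 2 or CA2 shRNA 3 (adjusted p = 0.0215, up to 0.0908). SOX9, the master regulator of chondrocytes, had 81.7, 93.4 and 97.0 CPM in Control and 105, 105 and 103 CPM in CA2 shRNA. Its change of 0.20 (adjusted p = 0.0381) was lost in 6 alternatives, among them those without Control 1, Control 2, Scrambled 3, CA2 shRNA 1 or CA2 shRNA 2 (up to 0.190).

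Of 20 targets of the mechanosensitive factors YAP and TEAD 10 fell, 3 rose and 7 did not pass (median -0.12), against 8.26% falls and 6.41% rises among all genes. Among the 18 members with neither string 8 fell and 3 rose, with a median of -0.008. AXL, a receptor kinase that holds a 7-base string, had 896, 866 and 902 CPM in Control and 441, 503 and 459 CPM in CA2 shRNA, with no overlap, a change of -0.93 on the log2 scale (SE 0.0589, adjusted p = 6.99e-09). ANKRD1, a nuclear cofactor and common YAP reporter, fell from 37.1 ± 1.24 to 23.3 ± 1.32 CPM (-0.67) and DLC1 from 198 ± 8.40 to 144 ± 8.33 CPM (-0.46; SD, n = 3 each), and neither holds a string. CCN2 is a member of this list too. Of 35 actin, adhesion and integrin genes 10 fell, 5 rose and 20 did not pass (median -0.08), or 42.9% called against 14.7% of all genes. The myosin light chain gene MYL9 fell from 637 to 404 CPM (-0.66) and the integrin gene ITGB3 from 36.3 to 26.2 CPM (-0.46), both with a string, while the fibronectin receptor subunit ITGA5 rose from 158 to 218 CPM (0.47). The counts of both lists moved by less than 1.5 times when any 1 library was left out.

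**Figure D4:**
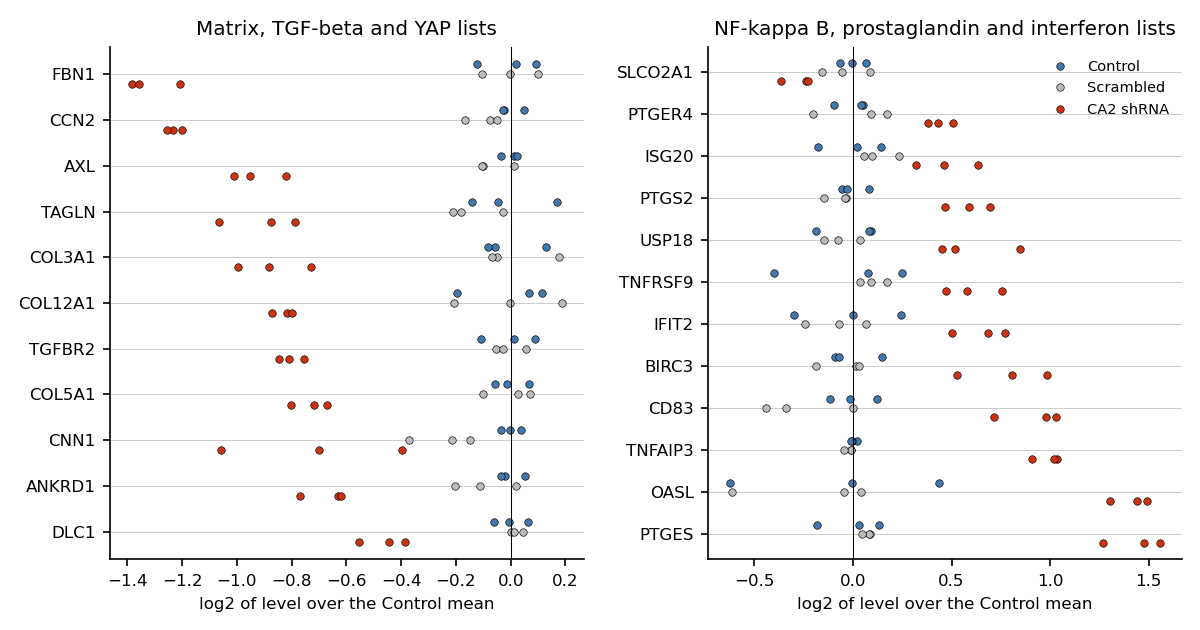
Log2 of each library's level over the Control mean for called members named from the matrix, TGF-beta and YAP lists (left) and from the NF-kappa B, prostaglandin and interferon lists (right); points are libraries, with Control in blue, Scrambled in grey and CA2 shRNA in red. On the left every red point lies below the Control mean, and on the right it lies above it for each gene except SLCO2A1, which fell by 0.28.

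The inflammatory genes that passed were mostly rises. NF-kappa B is the transcription factor that induces cytokines and its own inhibitors. Of 22 tested NF-kappa B targets and cytokines 11 rose, 0 fell and 11 did not pass, with a median of 0.36, against 6.41% rises among all genes, and 9 rose without Control 3. TNFAIP3, which encodes the inhibitor A20, had 19.7, 19.4 and 19.3 CPM in Control and 36.5, 39.9 and 39.6 CPM in CA2 shRNA, the groups being well apart, a change of 0.99 on the log2 scale (SE 0.0721, adjusted p = 3.35e-08). CD83, an early NF-kappa B target best known from dendritic cells, rose from 5.28 ± 0.443 to 9.97 ± 1.13 CPM (0.91), the inhibitor of apoptosis gene BIRC3 from 7.78 ± 0.731 to 13.4 ± 2.09 CPM (0.79), and the TNF receptor family gene TNFRSF9 from 9.10 ± 2.01 to 13.9 ± 1.399 CPM (0.61; SD, n = 3 each). In prostaglandin synthesis 3 of 12 genes rose, 1 fell and 8 did not pass (median 0.13; 33.3% called against 14.7% of all genes), and the rises numbered 1 without Control 2 and 5 without Scrambled 2. PTGES rose in every alternative. PTGS2, the inducible cyclooxygenase, had 3.07, 3.12 and 3.37 CPM in Control and 4.79, 4.40 and 5.15 CPM in CA2 shRNA (0.59, adjusted p = 0.0122), lost without Control 2 or CA2 shRNA 3 (up to 0.0593). The prostaglandin E2 receptor gene PTGER4 changed by 0.44, lost without Control 2 or CA2 shRNA 2, and the transporter SLCO2A1 by -0.28, lost without Control 1 or CA2 shRNA 1 and after thinning.

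Among 35 interferon-stimulated genes there were 8 rises and 0 falls, and 27 did not pass (median 0.14), or 22.9% called against 14.7% of all genes. Among all genes with a 3' UTR searched 8.94% rose and 10.5% fell. Without CA2 shRNA 2, 5 of 35 rose. Next to OASL, the antiviral gene IFIT2 had 2.81, 4.10 and 3.46 CPM in Control and 5.89, 5.55 and 4.90 CPM in CA2 shRNA (0.65, adjusted p = 0.0118), lost without Control 1 or CA2 shRNA 2. USP18, a brake on interferon signalling, changed by 0.60, lost without CA2 shRNA 2, and the RNase gene ISG20 by 0.47, lost without Control 1, Control 3, CA2 shRNA 1 or CA2 shRNA 2. Markers of immune cells were near 0: 2 of 13 reached 1 CPM, CD14 and ITGAM, and their sum was 3.55 to 4.39 CPM in Control and 3.56 to 5.39 CPM in CA2 shRNA. Of 21 matrix proteases and inhibitors 7 rose, 2 fell and 12 did not pass (median 0.15), or 42.9% called against 14.7% of all genes. The collagenase gene MMP1 had 25.9, 25.3 and 26.1 CPM in Control and 36.1, 46.2 and 38.6 CPM in CA2 shRNA, without overlap (0.64, adjusted p = 1.50e-04). PLAT, a plasminogen activator, rose from 39.2 to 52.8 CPM (0.43), its relative in the system PLAUR, the urokinase receptor, from 38.5 to 49.5 CPM (0.36), and ADAM17, the protease that sheds TNF, from 26.0 to 33.9 CPM (0.38). The 2 falls became 0 without Control 2, Control 3 or any 1 of the CA2 shRNA libraries, and 1 without Scrambled 2 or Scrambled 3.

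Transport of acid and lactate came next, with calls in both directions. Among 24 transporters of acid, base or lactate there were 5 rises and 1 fall, and 18 did not pass (median 0.10), or 25.0% called against 14.7% of all genes. SLC16A1, the transporter MCT1 that carries lactate with a proton, had 72.9, 78.6 and 80.3 CPM in Control and 116, 113 and 115 CPM in CA2 shRNA; all CA2 shRNA values were higher, a change of 0.57 on the log2 scale (SE 0.0625, adjusted p = 4.39e-06). The proton exchanger gene SLC9A7, which acts in internal membranes and holds a string, fell from 50.8 to 36.5 CPM (-0.48). NHERF1, a scaffold of membrane transporters, rose from 56.3 to 73.7 CPM (0.39). The single fall became 2 without Scrambled 1 or CA2 shRNA 1.

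In glucose uptake and glycolysis 6 of 29 genes rose, 4 fell and 19 did not pass (median 0.07; 34.5% called against 14.7% of all genes), and rises numbered 11 without CA2 shRNA 3. Besides SLC2A3, the glycolytic kinase gene PGK1 had 282, 290.4 and 287 CPM in Control and 452, 405 and 356 CPM in CA2 shRNA, higher in each CA2 shRNA library (0.49, Scrambled minus Control 0.14). PFKFB3, which makes the activator of phosphofructokinase, fell from 47.5 ± 1.15 to 28.1 ± 2.41 CPM (-0.75) and the transporter gene SLC2A10 from 203 ± 9.98 to 138 ± 3.27 CPM (-0.55; SD, n = 3 each). Both hold a string, as did 3 of the 4 falling members. Of 22 hypoxia targets 4 rose, 0 fell and 18 did not pass (median 0.27), or 18.2% called, near the 14.7% of all genes, and 2 rose without Control 1 or Control 2. The CA2 shRNA libraries differed widely in several members that did not pass: next to CA9, NDRG1 ranged from 6.11 to 31.3 CPM and the mitophagy gene BNIP3 from 77.8 to 141 CPM among them. VEGFA, the vascular growth factor, rose from 26.3 to 35.4 CPM (0.43) and the oxygen sensor EGLN1 from 29.8 to 37.7 CPM (0.34), while the calls of DDIT4 (0.58) and ERO1A (0.42) were lost without Control 1 or Control 2, and that of DDIT4 also without CA2 shRNA 1. Without either Control 1 or CA2 shRNA 1, 1 hypoxia target fell.

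In the tricarboxylic acid cycle 4 of 25 genes rose, 5 fell and 16 did not pass (median 0.04), or 36.0% called against 14.7% of all genes. The falls rested on single libraries: 1 was left without Control 3, CA2 shRNA 1 or CA2 shRNA 3, and 3 without Control 2. Rises numbered 2 without Control 2 and 7 without Scrambled 2. IDH1, the cytosolic isocitrate dehydrogenase, had 48.4, 57.0 and 58.4 CPM in Control and 38.8, 37.5 and 39.3 CPM in CA2 shRNA and fell in every alternative (-0.50), and the succinyl-CoA ligase subunit SUCLG2 rose from 46.6 to 56.8 CPM (0.29). Its partners SUCLG1 (-0.27) and SUCLA2 (-0.31) passed, and lost the call without Control 3, CA2 shRNA 1 or CA2 shRNA 3, SUCLA2 also without Control 2 or CA2 shRNA 2. Of 57 nuclear genes of the respiratory chain 4 rose and 0 fell, or 7.02% called, under the 14.7% of all genes, and 51 lay above 0 (median 0.11). That lean was not particular to this list: 53 of 62 cytosolic ribosomal protein genes lay above 0, though 6 of 26 TGF-beta and SMAD targets did. All searched genes with neither string, as 55 of the 57 were, had a median of 0.035. Rises among the 57 numbered 1 without Control 1 or Control 2, 0 without CA2 shRNA 2, 11 without Scrambled 2 and 13 without Control 3 and Scrambled 2, and a single fall appeared without Scrambled 1. NDUFB9 (0.33), ATP5PO (0.33) and UQCRC2 (0.19) lost theirs without Control 1, Control 2 or CA2 shRNA 2 and, for ATP5PO, CA2 shRNA 3 as well as, for UQCRC2, Control 3 or Scrambled 3. Of 13 mitochondrially encoded proteins MT-ND3 alone passed (0.21); its groups overlapped and the call was lost without Control 1, Control 3, CA2 shRNA 2 or CA2 shRNA 3. The share of mitochondrial counts was 4.06% to 5.97% in Control and 5.55% to 6.62% in CA2 shRNA, and its part in this result was not tested.

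Of 28 antioxidant and glutathione genes 5 rose, 1 fell and 22 did not pass (median 0.09), or 21.4% called against 14.7% of all genes. Beside the genes with a 3' UTR searched, of which 8.94% rose and 10.5% fell, this share was not far off. GCLM, the modifier subunit of the enzyme that limits glutathione synthesis, had 35.4, 39.0 and 41.0 CPM in Control and 22.3, 22.6 and 24.8 CPM in CA2 shRNA and a string in its 3' UTR, and the groups did not overlap (-0.73, adjusted p = 2.76e-05). The mitochondrial superoxide dismutase SOD2 changed from 113 to 138 CPM (0.29), it holds the 8-base match, and its reads are uncertain because ACAT2 overlaps it on the other strand. NQO1 (0.26) and GPX1 (0.23) lost their calls without CA2 shRNA 2, GPX1 also without Control 2. Rises numbered 1 without CA2 shRNA 2, 2 without Control 2, 3 without Control 1 or CA2 shRNA 3 and 8 without Scrambled 2.

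In the stress response lists, too, most calls were rises. Of 22 endoplasmic reticulum folding genes 10 rose, 1 fell and 11 did not pass (median 0.19; 50.0% called against 14.7% of all genes), and the rises numbered 6 without Control 1 and 5 without CA2 shRNA 2. The chaperone gene HYOU1 had 118, 125 and 128 CPM in Control and 147, 166 and 153 CPM in CA2 shRNA, without overlap (0.33, adjusted p = 0.00116). The protein disulfide isomerase PDIA6 rose from 153 to 191 CPM (0.32) and MANF, a secreted factor of this stress response, from 69.3 to 89.4 CPM (0.37), while SDF2L1 (0.38) lost its call without CA2 shRNA 2. The single fall did not pass without Control 2, Control 3, Scrambled 2, CA2 shRNA 1 or CA2 shRNA 3. Of 25 p53 targets 8 rose, 1 fell and 16 did not pass (median 0.17), or 36.0% called against 14.7% of all genes. CDKN1A, the cell cycle inhibitor p21, had 133, 167 and 173 CPM in Control and 217, 229.6 and 226 CPM in CA2 shRNA, all CA2 shRNA values being higher (0.51, adjusted p = 6.95e-04). The death receptor gene TNFRSF10B rose from 82.0 to 120.0 CPM (0.55), FDXR from 17.9 to 24.6 CPM (0.46) and SESN2, a stress-induced regulator of mTORC1, from 17.6 to 27.2 CPM (0.63). Falls numbered 3 without Scrambled 1 and 2 without CA2 shRNA 2.

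Cell cycle genes moved both ways. Of 35 S phase and replication genes 9 rose, 2 fell and 24 did not pass (median 0.10), or 31.4% called against 14.7% of all genes. PCNA, the sliding clamp of DNA polymerase, had 325, 349.7 and 357 CPM in Control and 189.7, 182 and 187 CPM in CA2 shRNA, a change of -0.88 on the log2 scale (SE 0.0526, adjusted p = 3.23e-09) with no overlap. It and CCNE1, the cyclin of S phase entry (-0.35), were the 2 falls, and both hold a string. CDC6, a licensing factor, rose from 63.0 to 79.3 CPM (0.33) and the flap endonuclease FEN1 from 118 to 146 CPM (0.30). Rises numbered 5 without Control 1 or Control 2 and 4 without CA2 shRNA 2. Of 32 G2 and mitosis genes 3 rose, 6 fell and 23 did not pass (median -0.04; 28.1% called against 14.7% of all genes), with 1 rise left without Control 2 or CA2 shRNA 2. MKI67, whose protein marks dividing cells, fell from 1703 ± 129.7 to 1238 ± 80.5 CPM (-0.46), the mitotic kinase PLK1 from 255 ± 8.22 to 205 ± 8.83 CPM (-0.32), and CCNB2 (-0.51) and CDC25C (-0.59), which both hold a string, also fell (SD, n = 3 each).

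**Figure D5:**
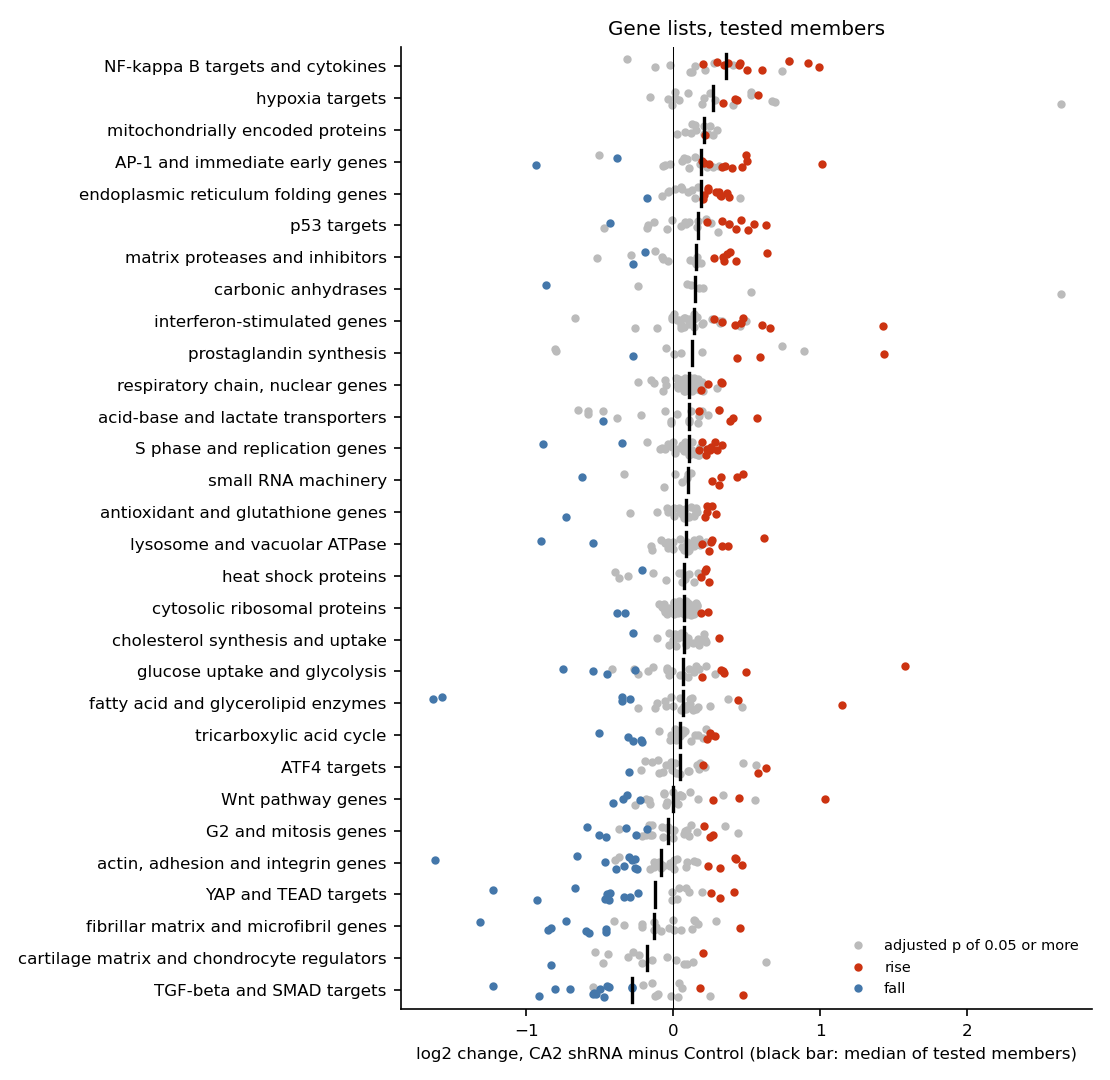
Log2 change, CA2 shRNA minus Control (x axis), of the tested members of 30 gene lists (y axis, ordered by median); each point is 1 gene, red for a rise, blue for a fall and grey for an adjusted p of 0.05 or more, and the black bar is the list's median. NF-kappa B targets lie highest, with a median of 0.36 and 0 falls, and TGF-beta and SMAD targets lowest, with a median of -0.28 and 13 falls.

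Among 26 AP-1 and immediate early genes 10 rose, 2 fell and 14 did not pass (median 0.19; 46.2% called against 14.7% of all genes), and 6 rose without Control 2, Control 3 or CA2 shRNA 2. Next to DUSP5, the ERK phosphatase DUSP4 had 45.6, 44.0 and 43.8 CPM in Control and 61.6, 65.3 and 61.6 CPM in CA2 shRNA, without overlap (0.50, adjusted p = 3.79e-05). EGR2 (-0.93) and FOSB (0.50) passed narrowly (adjusted p = 0.0430 and 0.0482), and each lost its call in at least 8 alternatives. Of the 2 falls 0 were left without Control 2, Control 3, CA2 shRNA 1 or CA2 shRNA 2, and 1 without Scrambled 3 or CA2 shRNA 3. Of 27 targets of ATF4, the factor of the amino acid response, 3 rose, 1 fell and 23 did not pass (median 0.04), or 14.8% called, near the 14.7% of all genes. SLC7A5, an amino acid transporter, fell from 1107 ± 29.8 to 900.2 ± 40.03 CPM (SD, n = 3 each; -0.30), SESN2 belongs here too, and PHGDH (0.20) lost its call in 8 alternatives. Rises numbered 1 without Control 1 or Control 2, 6 without CA2 shRNA 1 and 8 without Scrambled 2, and falls numbered 3 without Scrambled 1.

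In lipid metabolism, 2 of 30 fatty acid and glycerolipid enzymes rose, GPAT3 and the elongase ELOVL6 (0.44), 5 fell and 23 did not pass (median 0.07), or 23.3% called against 14.7% of all genes. Genes with a 3' UTR searched rose in 8.94% and fell in 10.5%, so the share was not far from theirs. Of the 5 falls in this list 3, ACOT7 and LPGAT1 among them, hold a string. Rises numbered 4 without Scrambled 2 or CA2 shRNA 3. Of 25 cholesterol genes 1 rose and 1 fell, 8.0% called, below the 14.7% of all genes. The synthesis gene HMGCS1 (0.31) lost its call without Control 1, CA2 shRNA 2 or CA2 shRNA 3. Cholesterol rises numbered 3 without Scrambled 2 or CA2 shRNA 1. Of 33 lysosomal and vacuolar ATPase genes, which acidify organelles and break down their content, 7 rose, 2 fell and 24 did not pass (median 0.09), or 27.3% called against 14.7% of all genes. The proton pump subunit ATP6V0E1 had 77.5, 81.9 and 85.1 CPM in Control and 44.1, 44.4 and 42.8 CPM in CA2 shRNA, without overlap (-0.90), and the autophagy gene MAP1LC3B fell from 144 ± 10.3 to 98.3 ± 3.26 CPM (-0.55; SD, n = 3 each). Both hold a string. TFEB, the regulator of lysosomal genes, rose from 8.97 to 13.9 CPM (0.62) and the pump subunit ATP6V1B2 from 80.1 to 104 CPM (0.37). The 7 rises became 4 without Control 1, Control 2 or CA2 shRNA 2.

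Markers of other cell types were mostly low. Their summed level was 6.10 to 9.08 CPM in Control and 7.30 to 8.38 CPM in CA2 shRNA for endothelial cells, of which 4 of 9 markers reached 1 CPM and EMCN had no count, and 5.60 to 6.29 against 5.56 to 6.03 CPM for epithelial cells (3 of 10). Adipocyte and muscle markers summed to 2.58 to 3.58 against 1.95 to 2.52 CPM (2 of 11). Neural markers summed to 33.9 to 37.1 CPM in Control and 27.3 to 29.4 CPM in CA2 shRNA, with 7 of 10 above 1 CPM, and 1 of them fell. That was SNAP25, a vesicle fusion gene that holds a string, from 18.4 to 10.9 CPM (-0.75). In the endothelial list ESAM fell, from 0.886 to 0.277 CPM (-1.64), a call lost without Control 1 or CA2 shRNA 1. No immune, epithelial, or adipocyte and muscle marker passed.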

How the data were processed

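RNA was sequenced from 9 libraries of C28/I2 cells, 3 per group. Per the submitters' processing notes, the tools were bcl2fastq, STAR (2.5.1a) with build GRCh38 and, from Subread, featureCounts (1.4.6-p5). Annotation release, strand setting and read layout were not given in the sources used here. The authors deposited, per the file headers, a read count, a CPM and an RPKM for each of 60671 genes and library, and every test started from the deposited counts. Totals ran from 16994368 to 34261244 counts per library.

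Groups came from the treatment labels. Genes were kept by filterByExpr (19812) and scaled with TMM factors. All 9 libraries entered 1 model with a term per group (edgeR 4.0.16, quasi-likelihood with robust fitting, R 4.3.3, 6 residual degrees of freedom), and CA2 shRNA was tested against Control with Benjamini-Hochberg adjustment at 0.05. The fit gave a biological coefficient of variation of 7.94%. Levels are shown as TMM-scaled CPM, and log2 changes are fitted values. With 3 libraries a group the smallest two-sided exact permutation p is 0.1, and no such test was run. The script was tested on simulated data. Alternatives, up to 20 for each gene (18 or 19 for some low genes, to which DESeq2 gave no adjusted p or which a filter dropped), changed the scaling, the filter, the tool (DESeq2 1.42.0, limma 3.58.1 voom), the replicate block, the libraries or the depth. A reference table gave symbols for 60401 gene IDs, and GENCODE 29 for another 246.

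Named genes were CA2; the 15 largest rises and 15 largest falls among protein-coding genes that passed, had a mean of at least 2 CPM and did not overlap between groups; the 10 with the smallest p; up to 4 called members of each list by size of change, or the 2 with the highest level where none passed; and 5 noncoding genes each way. Some genes that this rule names are not reported here. The comparison, the 35 lists and the 3' UTR strings were chosen with earlier results of these data known.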

Additional observations from a re-analysis of the deposited data

How the results depend on the processing

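Over the alternatives that kept all genes, 2906 calls became 1962 to 3662 when 1 library was left out, with 663 to 2030 rises and 1063 to 2027 falls. The number of calls among genes with neither 3' UTR string was 1872, of which 746 were falls. Fewer genes were counted there, and falls made up 6.56% of them against 10.5% of all searched genes. DESeq2 called 1398 rises and 1499 falls, a filter of at least 1 CPM in 3 libraries 1674 and 1557, no filter 1300 and 1784, library totals 1379 and 1642, and the 6 compared libraries alone 1431 and 2137. Under that filter rises outnumbered falls. The replicate block gave 1299 rises and 1647 falls. Same-numbered Control and CA2 shRNA libraries had correlations of 0.108, -0.154 and 0.335, and of the CA2 shRNA libraries Control 2 correlated best with CA2 shRNA 1. The labels do not say whether the numbers pair the libraries. These correlations, between deviations from the mean of 3 libraries, cannot decide it. The log2 change of CA2 was -0.995 to -0.76 when 1 library was left out, and its call was lost without Control 1 (-0.78), CA2 shRNA 2 (-0.76) and CA2 shRNA 3 (-0.80). Of 151 named genes that passed, 114 passed in every alternative and none changed sign in the alternatives run. Low counts limit the precision for CA2, COMP, EGR2 and ESAM, among others.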

Other observations

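Other gene groups moved little or in both directions. Among 25 Wnt pathway genes 3 rose, 4 fell and 18 did not pass (median -0.003; 28.0% called against 14.7% of all genes), and rises numbered 5 without Scrambled 2 and falls 2 without CA2 shRNA 3. Next to FRZB, the secreted antagonist SFRP1 rose from 106 ± 6.99 to 145 ± 5.70 CPM (0.44), and the receptor FZD2 fell from 140.1 ± 3.04 to 105 ± 7.50 CPM (-0.41; SD, n = 3 each). NKD2 (-0.34) lost its call without Control 1 or CA2 shRNA 3. Of 13 genes of the small RNA machinery, which processes and uses microRNAs, 5 rose, 1 fell and 7 did not pass (median 0.10), or 46.2% called against 14.7% of all genes. DICER1, the RNase that makes microRNAs, had 87.5, 71.2 and 73.2 CPM in Control and 101, 112 and 108 CPM in CA2 shRNA (0.47, adjusted p = 0.00380), and its partner TARBP2 rose from 27.5 to 37.3 CPM (0.43). The silencing scaffold genes TNRC6A and TNRC6B went opposite ways, from 121 to 151 CPM (0.32) and from 123 to 80.1 CPM (-0.62), and both DICER1, which rose, and TNRC6B, which fell, hold ACACCAA or CACCAAA in the 3' UTR. Of the 13 genes 5 hold a string, of which 2 rose and 1 fell. Falls here numbered 2 without Scrambled 1.

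Of 19 heat shock proteins 4 rose, 1 fell and 14 did not pass (median 0.07), or 26.3% called against 14.7% of all genes. HSPA9, the mitochondrial chaperone, rose from 323 ± 4.78 to 383 ± 14.1 CPM (SD, n = 3 each; 0.24), BAG3 (0.22) and DNAJA1 (0.22) lost their calls without CA2 shRNA 2, and DNAJA1 also without Control 2. HSPA1A (-0.21), whose reads HSPA1B can share, lost its call without Control 2, Control 3, CA2 shRNA 1 or CA2 shRNA 3, and heat shock falls numbered 3 without Scrambled 1 and 2 without CA2 shRNA 2. Rises numbered 2 without Control 2 and 1 without CA2 shRNA 2. Of 62 cytosolic ribosomal protein genes 2 rose, 2 fell and 58 did not pass, 6.45% called against 14.7% of all genes. RPL18 fell from 393 ± 22.5 to 301 ± 15.9 CPM (-0.38) and RPS2 from 1928 ± 24.7 to 1532 ± 120.2 CPM (-0.33; SD, n = 3 each), and pseudogene copies can share their reads. The rises of RPS13 (0.24) and RPS24 (0.19) were lost without Control 1, Control 2, CA2 shRNA 2 or CA2 shRNA 3, while ribosomal rises numbered 5 without Scrambled 2 and 4 without CA2 shRNA 1.

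Noncoding genes changed too, with no 3' UTR to search. Those named were chosen under the same conditions as the leading protein-coding genes, lack of overlap included. ZNNT1 had 3.15, 2.93 and 3.55 CPM in Control and 1.15, 0.784 and 1.39 CPM in CA2 shRNA, without overlap (-1.497, adjusted p = 9.78e-05). FOXD3-AS1 fell from 4.17 to 1.63 CPM (-1.33), WARS2-AS1 from 7.44 to 3.02 CPM (-1.29), the pseudogene CDC42P6 from 2.83 to 1.19 CPM (-1.21) and LINC01203 from 3.80 to 1.72 CPM (-1.17), and all 5 falls passed in each of the 20 alternatives. The strand setting of the counting is not given in the sources used here, so reads of the antisense genes cannot be told apart from those of their partners. Of the 5 leading noncoding rises, LINC00973 (0.91) passed in every alternative. HOXB-AS3 (0.73, Scrambled minus Control 0.47), LINC00265 (0.55, 0.15) and ENSG00000271936 (0.64, 0.27) lost their calls without Control 3, CA2 shRNA 1 or CA2 shRNA 2, among other libraries. ENSG00000264281 differed by 0.67 from Control, and Scrambled minus Control was also 0.67; its call was lost without Control 1, Control 2, CA2 shRNA 2 or CA2 shRNA 3 and after thinning.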
